A study of Mus musculus with 26 samples.

Results

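Lymphocytes reach a tissue, stay in it and leave it by means of a small set of surface receptors and cytoskeletal proteins, and 9 genes of this machinery are described here in CD4 and CD8 double positive (DP) cells from 3 sites of the mouse. They are Selplg, which carries selectin ligands, the egress regulator Klf2 and its target S1pr1, the chemokine receptors Ccr9, Ccr7 and Cxcr4, the integrin chains Itga4 and Itgb7, and the actin regulator Coro1a. They were chosen by symbol, with earlier results of these data known, and all 9 are among the 13765 genes of the deposited table. A test was possible for 8 of them; S1pr1 was too low in most columns and is described by its reads.

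The cells were sorted from the aortic arch, from mediastinal adipose tissue and from the thymus of female C57BL/6J mice aged 8 weeks, with no treatment or engineered allele stated. Sorted cells were viable and carried CD4 and CD8b but no T-cell receptor. Each tissue has 4 pools of 5 mice, and the pool is the replicate (n = 4 throughout). The libraries number 9 from arch, 8 from adipose tissue and 9 from thymus, each made from the lysate of 200 cells. Arch and adipose tissue were digested before sorting, while for thymus only a cell suspension is stated, so tissue and digestion cannot be told apart. Pooling hides differences between mice, and the labels do not say that a pool number marks the same mice in different tissues.

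In the thymus, DP cells sit in the cortex, where CXCL12 and CCL25 act on CXCR4 and CCR9. Cells that pass selection gain CCR7, which guides them to the medulla, and then KLF2 and its target S1PR1, a sphingosine 1-phosphate receptor through which mature cells leave for the blood. In vessels and peripheral tissue, selectin ligands on PSGL-1, the product of Selplg, start rolling, and integrins such as α4β7 and α4β1 give firm adhesion. Crawling then needs the turnover of actin that coronin 1A, the product of Coro1a, helps to control.

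Of the members that passed the test in a comparison, Klf2 and Coro1a have promoter sequence in the RefSeq table used (build GRCm38.p6). Their upstream sequence outside annotated exons is shown because these genes moved in opposite directions in arch. In the Klf2 sequence, chr8:72318812-72319032 on the plus strand, capitals mark a match to the MEF2 consensus that lies 118 to 109 bases upstream of the RefSeq start and reads alike on both strands. In the Coro1a sequence, chr7:126704817-126705066 on the minus strand, capitals mark the GC box GGGCGG, 153 to 148 bases upstream of its first RefSeq start. This Coro1a stretch lies between exons, inside the span of the annotated gene (126699773 to 126707787).
Klf2: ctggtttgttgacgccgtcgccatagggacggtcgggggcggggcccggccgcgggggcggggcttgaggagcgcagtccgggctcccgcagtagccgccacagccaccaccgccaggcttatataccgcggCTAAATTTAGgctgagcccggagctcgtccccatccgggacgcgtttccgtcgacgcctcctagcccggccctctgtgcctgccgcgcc
Coro1a: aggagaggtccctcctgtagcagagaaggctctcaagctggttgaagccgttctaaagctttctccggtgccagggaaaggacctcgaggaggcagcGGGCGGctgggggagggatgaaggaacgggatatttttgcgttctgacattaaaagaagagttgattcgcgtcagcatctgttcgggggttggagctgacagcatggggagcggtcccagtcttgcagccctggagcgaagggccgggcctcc

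Such matches differ in how common they are. Searched on both strands over 250 upstream bases, the MEF2 consensus was held by 2.92% of 32851 RefSeq promoters and the GC box by 32.7%. The word CACCC, which KLF proteins can bind, was held by 52%, CAGGTG by 17.2%, TGTGGT by 14% and GAANNTTC by 6.69%. The Klf2 sequence shown also held 2 GC boxes, and 1 CACCC on the minus strand lay 19 to 15 bases upstream of its start, in the stretch inside the annotated gene that is not shown, whereas the first Coro1a promoter held only the marked GC box of these words. Matches of letters are descriptions and name no bound factor.

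The level of a gene is given as a normalised read count, the deposited value of reads scaled between columns. Reads recovered per column numbered 11577253 to 34599519. Reads per library were fewest in 3 columns, called shallow below: arch pool 2 (5788626), thymus pool 3 (6736758) and arch pool 4 (7145620). The DP markers set down for the sort check, 12 genes such as Cd4, Cd8a and Rag1, all had reads in every tissue and summed to 8271 to 10220 CPM (reads scaled to a common total) in arch, 7825 to 12860 in adipose pools and 21830 to 24420 in thymus. Arch pools 2 and 4 and adipose pool 1 stood apart by markers of cells outside the sort, shown in the plot of summed markers. Fibroblast markers reached 3829 CPM in arch pool 4, smooth muscle markers 1930 and macrophage markers 977.3 in arch pool 2, and B cell markers 1263 in adipose pool 1. In thymus these sums stayed at or below 3.83, 3.31, 13.6 and 221.1 CPM. Where a call of a member or of another homing gene was lost without those 3 pools, the value without them is given, and in such bulk sorts fewer cells of a type and less RNA per cell cannot be told apart.

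**Figure D1:**
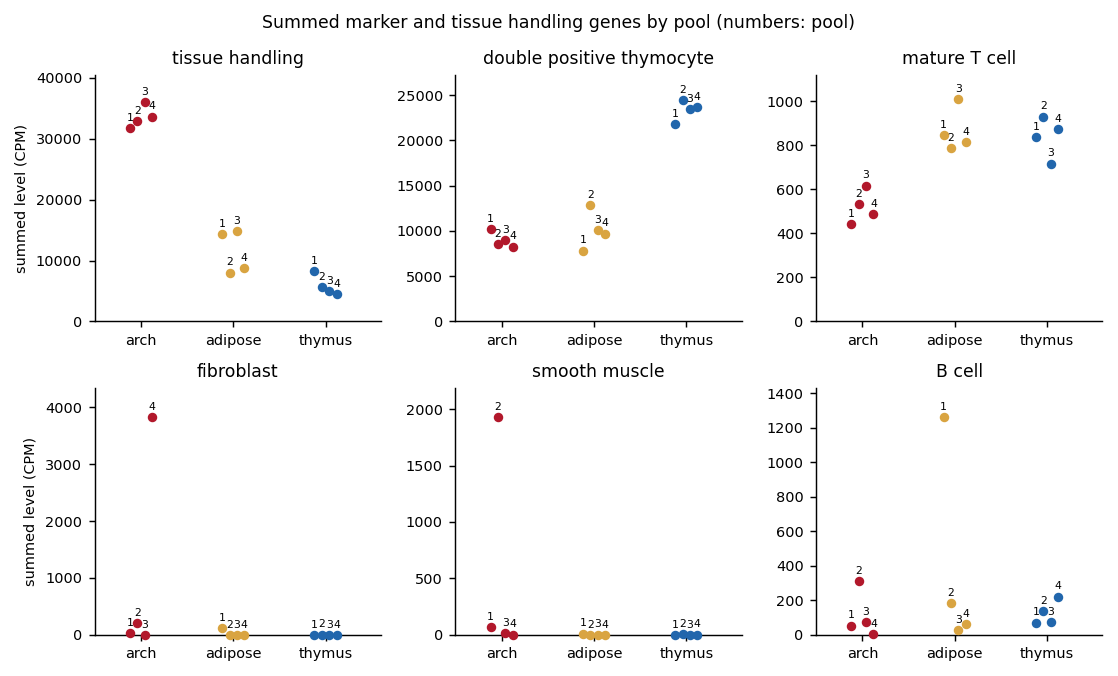
Summed level in CPM (y axis) of the tissue handling genes (heat shock and immediate early genes such as Hspa1a and Fos) and of 5 marker lists in each of 4 pools (points, numbered) of arch, adipose tissue and thymus. Abundant genes weigh most in a sum: mean normalised counts in arch were 280000 for Hspa8 and 206200 for Hsp90aa1, beside 6172 for Hspa1a and 3482 for Fos. Tissue handling genes reach 31710 to 35940 CPM in arch, 8003 to 14840 in adipose pools and 4450 to 8317 in thymus, and fibroblast, smooth muscle and B cell sums are each led by a single pool.

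A gene was tested if it had at least 100 in at least 4 of 12 columns, which left 9106 genes. It was called if limma, on log2(value + 20), gave a Benjamini-Hochberg adjusted p under 0.05 over all of them. In arch against thymus 3.99% of genes were called higher and 2.58% lower; of the 8 tested members, 2 were called higher (Selplg and Klf2), 1 lower (Coro1a), and 5 did not pass. In adipose tissue against thymus the shares were 2.17% higher and 0.67% lower, and of the members 1 was called higher (Selplg) and 0 lower; at an unadjusted p under 0.05 these were 3 and 2, by edgeR 1 and 0, and by DESeq2 2 and 1. In arch against adipose tissue 0.0988% were called higher and 0.0769% lower, with 1 member called lower (Selplg) and 0 higher; at an unadjusted p under 0.05 these were 3 and 1, by edgeR 0 and 0, and by DESeq2 1 and 0. The median log2 change of the members was -0.62, -0.47 and -0.52 in these comparisons, beside -0.20, -0.01 and -0.17 for all tested genes. The comparisons with thymus share its 4 pools, so they are not independent of each other.

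**Figure D2:**
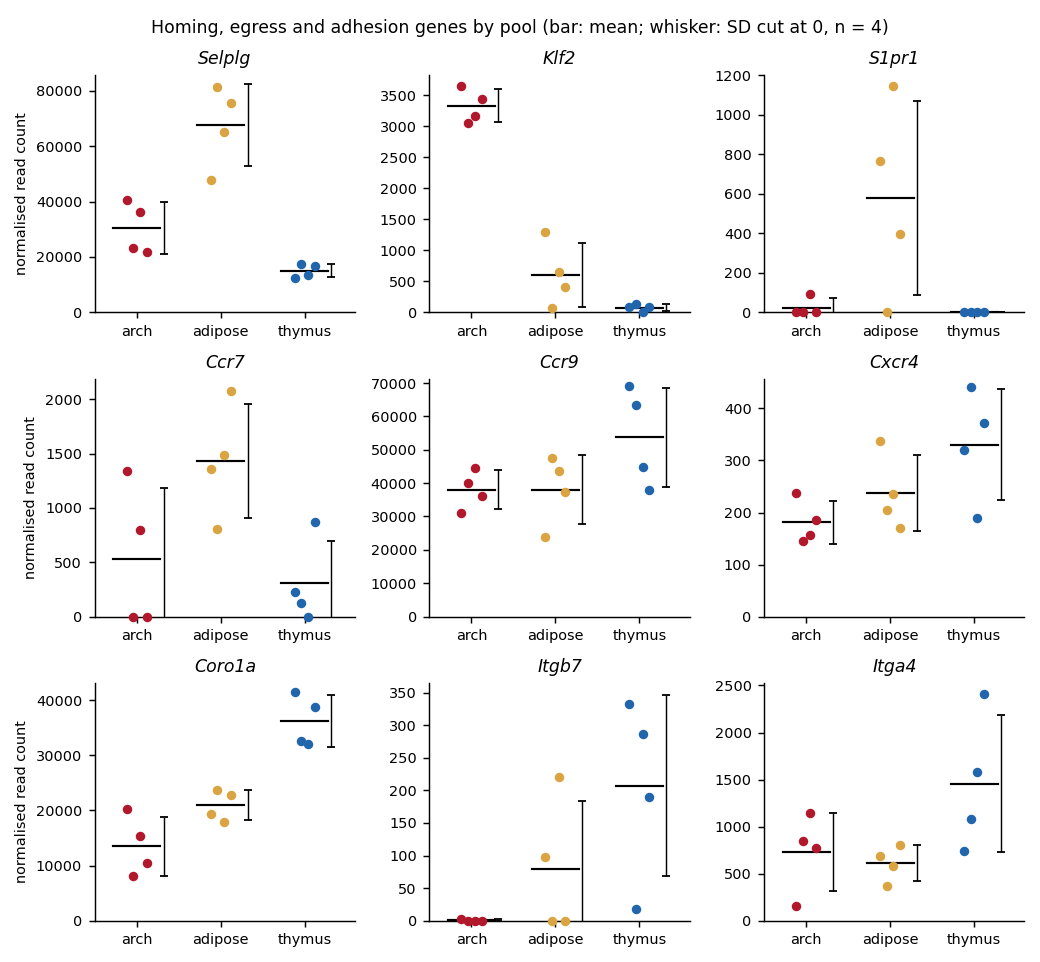
Normalised read count (y axis, from 0) of each of the 9 genes in 4 pools (points) of arch, adipose tissue and thymus, with the mean (bar) and SD (whisker, cut at 0). Selplg is separated in all 3 tissues, Klf2 of arch lies above all other pools, and Coro1a of thymus lies above all other pools.

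Selplg was higher at both peripheral sites than in thymus, and highest in adipose tissue. The gene lies on chromosome 5 (113818536 to 113832644, minus strand, GRCm38) and encodes PSGL-1, the mucin to which selectins bind once it carries the right sugars and sulphates. Selplg had normalised counts of 40470, 23220, 36369 and 21789 in arch pools 1 to 4, 47709, 81426, 65282 and 75747 in adipose pools 1 to 4, and 12395, 17450, 13582 and 16677 in thymus pools 1 to 4. No pool of a tissue overlapped with a pool of another. Mean and SD over 4 pools were 30462 ± 9358 for arch, 67541 ± 14816 for adipose tissue and 15026 ± 2423 for thymus.

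The log2 change of Selplg was 0.98 ± 0.22 (SE) in arch against thymus, a ratio of means of 2.03 (limma adjusted p = 0.00919). In adipose tissue against thymus it was 2.15 ± 0.22, a ratio of 4.50 (adjusted p = 5.10e-06), the 15th smallest p of all tested genes. Both calls held in all 8 fits without 1 pool and in all 11 other settings. Arch was lower than adipose tissue by a log2 change of -1.17 ± 0.22 (adjusted p = 0.0277). That call was kept in 3 of 8 fits without 1 pool and in 4 of 11 other settings, with adjusted p-values between 5.98e-05 and 0.442 over all of them. It was lost without arch pool 2 (0.141), arch pool 4 (0.104) and adipose pools 2, 3 or 4 (0.135, 0.0862 and 0.155), with edgeR (0.139), and with pool number as a block (0.0745). The lowest arch values were those of pools 2 and 4, the pools with few reads and with markers of stromal cells. Without them and adipose pool 1 the difference was -0.94 (adjusted p = 0.239).

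Klf2 was higher in arch than in thymus. It lies on chromosome 8 (72319033 to 72321656, plus strand) and encodes the zinc finger factor that T cells need in order to leave the thymus. In arch pools 1 to 4 its normalised counts were 3652.3, 3056.8, 3172.2 and 3443.8, in adipose pools 1297, 71.161, 648.84 and 413.25, and in thymus pools 80.945, 136.89, 0 and 86.616. Every arch pool lay above every other pool, and 3 of 4 adipose pools lay above all thymus pools. The arch pools were close together, with a mean of 3331.3 ± 268.5, while adipose pools were spread over 607.6 ± 517.2 and thymus pools over 76.1 ± 56.6 (SD, n = 4).

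In arch against thymus Klf2 was higher by 5.45 ± 0.89 on the log2 scale, a ratio of means of 43.8 (limma adjusted p = 0.000664), and the call held in all 8 fits without 1 pool and all 11 other settings. Adipose tissue against thymus gave 2.50 ± 0.89 (adjusted p = 0.181), which passed with DESeq2 (3.00, adjusted p = 0.0101) and without adipose pool 2 (3.25, adjusted p = 0.0394). The arch pools all exceeded the adipose pools, but the log2 change of 2.95 ± 0.89 did not pass among all genes (adjusted p = 0.305). Many genes that respond to tissue handling were higher in arch as well. Of 21 such genes tested, among them Fos, Junb and Hspa1a, limma called 13 higher in arch against thymus (median log2 change 3.49). It called 8 higher and 1 lower (Egr1) in adipose tissue against thymus (2.15), and 5 higher in arch against adipose tissue (1.19). Of all tested genes 3.99%, 2.17% and 0.0988% were called higher in these comparisons, with medians of -0.20, -0.01 and -0.17. In arch against thymus 8 of the 21 did not pass, among them Egr1 (-1.74), Nfkbia (-0.43) and Socs3 (-0.49). The part of handling in the Klf2 difference was not tested. Endothelial cells express Klf2 too. Their 9 measured markers summed to 65.6 to 128.9 CPM in arch, 65.3 to 428.4 in adipose pools and 27.7 to 108.4 in thymus. At 0 in all arch pools were 6 of them (Cdh5, Kdr, Tie1, Egfl7, Emcn and Cldn5). At 0 in all thymus pools were 7 (Cdh5, Kdr, Tie1, Emcn, Cldn5, Plvap and Esam), and each marker had reads in an adipose pool. The part of endothelial cells in the Klf2 difference was not tested.

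S1pr1 had most of its reads in adipose tissue, not in arch where Klf2 was highest. It lies on chromosome 3 (115710433 to 115715072, minus strand) and encodes the receptor through which lymphocytes sense sphingosine 1-phosphate in blood and lymph. In arch the normalised count was 95.296 in pool 3, from 118 reads, and 0 in pools 1, 2 and 4. In adipose pools it was 765.88, 0, 1146.2 and 398.27, from 3514 reads in all, and in thymus it was 0 in each pool. The adipose mean of 577.6 was thus at least 214.2-fold higher than thymus, taking 3 reads in each thymus pool as the limit that a count of 0 allows. Such limits cover counting error only, since amplified reads are not separate molecules.

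Only 3 columns of S1pr1 reached 100, so it was not among the tested genes. With the filter lowered to 20, limma gave 3.89 ± 1.10 in adipose tissue against thymus (unadjusted p = 0.00246, adjusted p = 0.0765), 0.63 in arch against thymus (adjusted p = 0.787) and -3.26 in arch against adipose tissue (adjusted p = 0.364). The adipose pool without S1pr1 reads, pool 2, was also the lowest adipose pool for Klf2 and had 14279190 reads from a single library. In adipose pools 1 to 4 the endothelial markers, which mark another S1pr1-expressing cell type, summed to 428.4, 65.3, 126.2 and 86.1 CPM; their part was not tested.

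The chemokine receptors did not pass in any comparison. Ccr9, the receptor for CCL25 and one of the most abundant receptors of DP thymocytes, lies on chromosome 9 (123678439 to 123784330, plus strand). Its exons overlap those of Slc6a20a on the opposite strand and of Gm17200 and AC165425.1, and the strand setting of the counting is not given in the sources used here. Ccr9 had 30978, 40127, 44679 and 36217 in arch pools, 23806, 47452, 43496 and 37305 in adipose pools, and 69030, 63304, 44744 and 37949 in thymus pools. The mean was 38000 ± 5820 for arch, 38015 ± 10352 for adipose tissue and 53757 ± 14782 for thymus (SD, n = 4), with thymus pools 1 and 2 above all others and thymus pools 3 and 4 within the range of the peripheral pools. The log2 change was -0.47 ± 0.22 in arch against thymus (adjusted p = 0.21), -0.50 ± 0.22 in adipose tissue against thymus (adjusted p = 0.333) and 0.03 ± 0.22 in arch against adipose tissue (adjusted p = 0.973).

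Ccr7, the receptor for CCL19 and CCL21, was uneven between pools. It lies on chromosome 11 (99144196 to 99155077, minus strand). Its counts were 1337.9, 0, 794.67 and 0 in arch pools, 1355.7, 807.46, 1490.5 and 2079.7 in adipose pools, and 228.68, 128.66, 0 and 869.46 in thymus pools. All adipose pools had reads, and 3 of the 4 lay above every thymus pool; the arch pools at 0 were again pools 2 and 4. The adipose difference from thymus was 3.11 ± 1.39 on the log2 scale and did not pass (adjusted p = 0.352), nor did the arch difference from adipose tissue of -3.25 ± 1.39 (adjusted p = 0.446). For arch against thymus the ratio of means was 1.74 while the log2 change was -0.14 ± 1.39 (adjusted p = 0.963), so the sign depends on the scale. Without arch pools 2 and 4 and adipose pool 1 this log2 change was 2.72 (adjusted p = 0.255).

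Cxcr4, the CXCL12 receptor that holds immature thymocytes in the cortex, was low in all tissues. It lies on chromosome 1 (128588199 to 128592293, minus strand). Counts were 237.79, 144.57, 157.48 and 185.02 in arch pools, 338.2, 204.77, 236.26 and 170.69 in adipose pools, and 320.38, 442.07, 189.35 and 371.21 in thymus pools. The tissues overlapped, with thymus pool 3 inside the arch range. The log2 changes were -0.77 ± 0.83, -0.43 ± 0.83 and -0.34 ± 0.83 in arch against thymus, adipose tissue against thymus and arch against adipose tissue (adjusted p = 0.628, 0.905 and 0.916).

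Both chains of the integrin α4β7, which binds MAdCAM-1 on mucosal vessels, had lower means at the peripheral sites, and neither passed the test. Itga4, whose α4 chain also pairs with β1 to bind VCAM-1, lies on chromosome 2 (79255426 to 79333123, plus strand), where its exons overlap Cerkl on the opposite strand. It had 162.05, 850.28, 1142.7 and 771.17 in arch pools, 692.67, 365.97, 584.1 and 806.28 in adipose pools, and 738.13, 1083.9, 1580.4 and 2414.5 in thymus pools. The pools of the 3 tissues overlapped. Its log2 change was -1.12 ± 0.66 in arch against thymus (adjusted p = 0.327), -1.14 ± 0.66 in adipose tissue against thymus (adjusted p = 0.52) and 0.02 ± 0.66 in arch against adipose tissue (adjusted p = 0.995).

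Itgb7, the β7 chain gene, was at or near 0 in arch. It lies on chromosome 15 (102215995 to 102231944, minus strand). Arch pools held 3.2573, 0, 0 and 0, which is 4 reads in all, adipose pools held 97.043, 0, 220.41 and 0, and thymus pools held 332.84, 18.7, 286.94 and 190.56. All arch pools thus lay below all thymus pools, and the adipose pools were mixed, with reads in pools 1 and 3 only. The log2 change of -3.05 ± 1.06 in arch against thymus missed the threshold (adjusted p = 0.0915) and passed only with DESeq2 among the settings run (-7.85, adjusted p = 0.00719). Adipose tissue against thymus gave -1.57 ± 1.06 (adjusted p = 0.614) and arch against adipose tissue -1.48 ± 1.06 (adjusted p = 0.659).

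Coro1a was lower in arch than in thymus, with adipose tissue between them by its mean. It encodes coronin 1A, a haematopoietic actin binding protein that restrains the Arp2/3 complex and that thymocytes need for egress. It lies on chromosome 7 (126699773 to 126707787, minus strand) and overlaps exons of Bola2 on the opposite strand. The strand setting of the counting is not given, so reads in the shared bases may belong to either gene. Coro1a had 20160, 8076.7, 15376 and 10411 in arch pools, 19419, 23623, 17955 and 22766 in adipose pools, and 41425, 32517, 32027 and 38769 in thymus pools. Every thymus pool lay above every peripheral pool, and arch pool 1 lay within the adipose range. Mean and SD over 4 pools were 13506 ± 5380 for arch, 20941 ± 2693 for adipose tissue and 36184 ± 4651 for thymus.

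In arch against thymus Coro1a changed by -1.50 ± 0.23 on the log2 scale (limma adjusted p = 0.000393), a call that held in all 8 fits without 1 pool and all 11 other settings. The lowest arch values belonged to pools 2 and 4, and without them and adipose pool 1 the change was -1.03 (adjusted p = 0.00749). In adipose tissue against thymus it was -0.79 ± 0.23 (adjusted p = 0.0803). This passed with DESeq2 (0.0162), with only these tissues in the fit (0.0125), without the 3 shallow columns (0.0146) and without the 3 pools rich in markers of other cells (0.0241). Arch against adipose tissue gave -0.71 ± 0.23 (adjusted p = 0.341). The DP markers moved in the same direction, with 7 of 12 called lower in arch against thymus and 8 of 12 in adipose tissue against thymus. Of all tested genes 2.58% and 0.67% were called lower in these comparisons. The part of the DP marker change in the Coro1a difference was not tested.

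**Figure D3:**
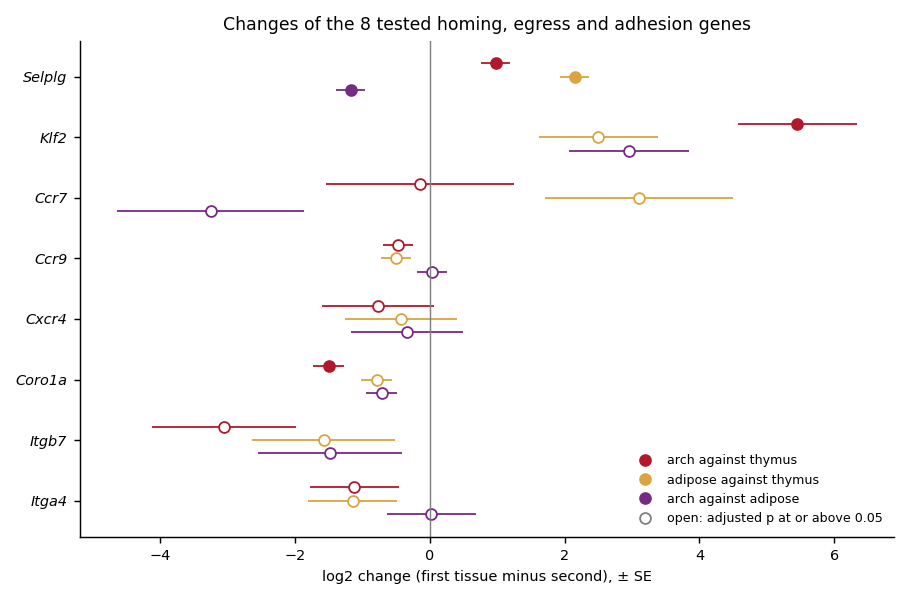
Log2 change with its SE (x axis) of the 8 tested genes (rows) in arch against thymus, adipose tissue against thymus and arch against adipose tissue (colours); filled points passed the test. Selplg passes in all 3 comparisons, Klf2 and Coro1a pass in arch against thymus, and the error bars of Ccr7, Cxcr4, Itgb7 and Itga4 are several times wider than those of Selplg, Ccr9 and Coro1a.

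Set against transcript length, the order of the genes differed between the tissues. Per kilobase of the longest coding transcript, the mean normalised counts in arch were 16420 for Selplg, 7731 for Coro1a, 7312 for Ccr9 and 1804 for Klf2. In adipose tissue they were 36410 for Selplg, 11990 for Coro1a and 7315 for Ccr9, and in thymus 20710 for Coro1a, 10340 for Ccr9 and 8100 for Selplg. On this scale Selplg led at both peripheral sites and stood below Coro1a and Ccr9 in thymus, where Klf2, at 41.2 per kilobase, was above S1pr1 alone. The order depends on the transcript length used, 5.2 kb for Ccr9 and 1.85 kb for Selplg. Before that division Ccr9 had the highest mean in arch (38000, beside 30462 for Selplg) and in thymus (53757, beside 36184 for Coro1a). Coro1a and Ccr9 in arch differed by less than the spread between pools.

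The other genes of the same pathways come from 6 lists, chosen like the members with earlier results of these data known. Shares of called genes are thus descriptions. The lists hold 146 further genes reported here, 124 of them in the table and 102 of them tested. In arch against thymus 5 were called higher and 8 lower (4.9% and 7.84%), beside 3.99% and 2.58% of all tested genes, with a median log2 change of -0.34 beside -0.20. In adipose tissue against thymus 7 were called higher and 2 lower (6.86% and 1.96%), beside 2.17% and 0.67%, with a median of -0.12 beside -0.01. In arch against adipose tissue limma called 0 of 102 (median -0.27, beside -0.17 for all tested genes); 13 had an unadjusted p under 0.05, edgeR called 0 and DESeq2 called 2. The plot of the lists shows where the called genes fall.

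**Figure D4:**
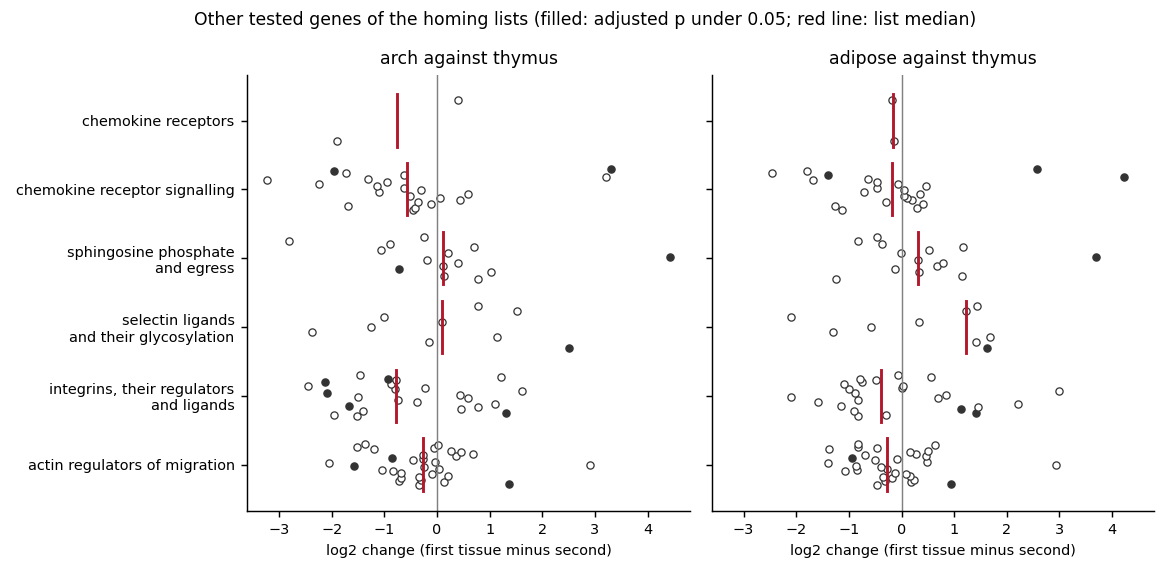
Log2 change (x axis) of each tested gene (points) of 6 homing lists (rows) in arch against thymus and in adipose tissue against thymus; filled points passed the test and red lines mark list medians. Called genes sit on both sides of 0 in arch, and mostly to the right of 0 in adipose tissue.

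Of the 2 further chemokine receptors reported, Ccr4 and Cxcr2, limma called 0 in a comparison with thymus, 0 had an unadjusted p under 0.05, and edgeR and DESeq2 called 0 in each. Among 22 signalling genes that act below such receptors, 1 rose (Rgs2) and 1 fell (Rgs19) in arch against thymus. These were 4.5% each, beside 3.99% and 2.58% of all tested genes. In adipose tissue against thymus 2 rose (Rgs1 and Rgs2) and 1 fell (Rgs10), 9.09% and 4.5% beside 2.17% and 0.67%. All 4 encode RGS proteins, which shorten G protein signals. Rgs2 had 12830, 20408, 11276 and 5583.2 in arch pools, 5408.3, 10015, 7354.2 and 5488.2 in adipose pools, and 671.3, 1888.7, 853.5 and 1479.9 in thymus pools. Neither peripheral tissue overlapped with thymus, and the log2 changes were 3.31 ± 0.39 in arch (adjusted p = 2.14e-05) and 2.58 ± 0.39 in adipose tissue (adjusted p = 0.000515). Rgs19 fell by 1.96 ± 0.57 in arch (adjusted p = 0.0482), a call made without arch pools 1 or 2 but lost without any of the other 6 pools (adjusted p = 0.0512 to 0.116), with edgeR (0.0986), without the 3 shallow columns (0.0624) and without the 3 pools rich in markers of other cells (0.0629). Rgs1 had no thymus reads and a mean of 386.8 in adipose tissue (4.22 ± 1.10, adjusted p = 0.0443, lost in all 8 fits without 1 pool, at 0.085 to 0.125). Rgs10 fell by 1.39 in adipose tissue (adjusted p = 0.0338), a call made without thymus pool 4 and lost without any of the other 7 pools (0.0533 to 0.121) and with edgeR (0.0534).

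In the list on sphingosine phosphate and egress, S1pr2, a receptor of the same ligand as S1pr1 that restrains migration, was higher at both peripheral sites. S1pr2 had 2928.3, 753.3, 2673.1 and 1983.9 in arch pools, 792, 1179.2, 1137.9 and 1404.4 in adipose pools, and 608.5, 0, 211.2 and 0 in thymus pools. No peripheral pool overlapped with thymus. The log2 change was 4.42 ± 0.98 in arch (adjusted p = 0.00919) and 3.69 ± 0.98 in adipose tissue (adjusted p = 0.0485), but neither edgeR (adjusted p = 0.271 and 0.722) nor DESeq2 called either. The adipose call was lost without thymus pools 2 or 4 and without any adipose pool (adjusted p = 0.0949 to 0.145), and without the 3 pools rich in markers of other cells (0.0857). Klf13, a factor of the KLF family, fell by 0.71 ± 0.19 in arch (adjusted p = 0.0338), a call made without arch pool 3 or thymus pool 3 but lost without any of the other 6 pools (0.0565 to 0.107), with edgeR (0.0631), without the shallow columns (0.1) and without the marker-rich pools (0.119). Of the 14 tested genes 1 rose and 1 fell in arch (7.14% each, beside 3.99% and 2.58% of all tested genes). In adipose tissue 1 rose (7.14%, beside 2.17%). The other 12 in arch and 13 in adipose tissue did not pass. Among them was Cd69, whose product draws S1PR1 off the cell surface. Its mean was 6753 in arch, 1839 in adipose pools and 4046 in thymus (adjusted p = 0.498 and 0.451 against thymus).

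Among 9 genes of selectin ligands and their glycosylation, 1 rose in arch and in adipose tissue against thymus, B4galt1. This was 11.1% at each site, beside 3.99% and 2.17% of all tested genes. By limma 0 were lower at either site; 1 was at an unadjusted p under 0.05 in each, and edgeR and DESeq2 called 0. B4galt1, a galactosyltransferase that builds the chains on which selectin ligands are made, had 6895, 10852, 11382 and 8523.3 in arch pools, 4496.5, 5968.8, 5519.3 and 4196.8 in adipose pools, and 1662.5, 1609, 1844 and 1375.1 in thymus pools. It was separated from thymus at both sites, with log2 changes of 2.50 ± 0.26 in arch (adjusted p = 5.88e-06) and 1.62 ± 0.26 in adipose tissue (adjusted p = 0.000927), called in all 8 fits without 1 pool and all 11 other settings in each.

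Of 24 integrin genes, regulators and ligands, 1 rose and 4 fell in arch against thymus (4.17% and 16.7%, beside 3.99% and 2.58% of all tested genes). By edgeR 3 were lower and by DESeq2 6, and 3 of the 4 calls were lost without the marker-rich pools. In adipose tissue 2 rose (8.33%, beside 2.17% of all tested genes) and limma called 0 lower (beside 0.67%). At an unadjusted p under 0.05 limma had 4 lower, while edgeR called 0 lower and DESeq2 2. Rassf5, the RAP1 effector that activates the integrin LFA-1, had 3386.8, 1443.8, 3922.5 and 904.9 in arch pools, 3264.6, 7294.8, 4281.5 and 7741.6 in adipose pools, and 10364, 8321.6, 10821 and 6987.9 in thymus pools. It changed by -2.13 ± 0.41 in arch (adjusted p = 0.00307; -1.30 without the 3 pools rich in markers of other cells, and adjusted p = 0.0829 without the 3 shallow columns). Itgb2, the β chain of LFA-1, fell by 2.09 ± 0.59 in arch (adjusted p = 0.0396), with a mean of 2288 against 7417 in thymus; the call was lost without thymus pools 1, 2 or 4 or arch pools 2 or 4 (0.0634 to 0.113) and with edgeR (0.14), and the change without those 3 pools was -0.90 (adjusted p = 0.229). Icam2, an LFA-1 ligand, fell by 1.68 ± 0.39 (adjusted p = 0.0135, but 0.064 without those pools, 0.0966 without the shallow columns and 0.052 without thymus pool 2). The 4th gene called lower was Skap1, lost without thymus pools 1 or 2 (0.0717 and 0.0777), without the shallow columns (0.0519) and without the marker-rich pools (-0.81, adjusted p = 0.108).

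The genes of this list that rose encode adaptors and regulators. Cytip, a cytohesin binding protein that limits LFA-1 adhesion, rose by 1.30 ± 0.34 in arch (adjusted p = 0.0276) and by 1.41 ± 0.34 in adipose tissue (adjusted p = 0.0281), but the arch call was lost without thymus pools 3 or 4 or arch pools 1 or 2 (0.056 to 0.0967), and the adipose call without thymus pools 3 or 4 or adipose pools 2 or 3 (0.0899 to 0.1). Both calls of Cytip were also lost with edgeR (0.115 in arch and 0.112 in adipose tissue), without the marker-rich pools (0.145 and 0.0546) and without the shallow columns (0.205 and 0.0806). Fyb, the adaptor ADAP that links the T-cell receptor to integrins, rose in adipose tissue. Fyb had 13976, 13922, 14812 and 17207 in adipose pools and 7577.2, 6734.3, 6298.2 and 6724.7 in thymus pools, which do not overlap (1.13 ± 0.18, adjusted p = 0.00094, called in every setting run). The arch pools of Fyb, at 9868.1, 8443.8, 8967.5 and 10409, also lay above all thymus pools. Its arch change did not pass against thymus (0.46 ± 0.18, limma adjusted p = 0.139) or against adipose tissue (-0.67 ± 0.18, adjusted p = 0.257). Itgb1, the partner of α4 in VCAM-1 binding, averaged 2807 in arch, 3604 in adipose pools and 1989 in thymus (adjusted p = 0.555 and 0.392).

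Of 31 actin regulators, 1 rose and 2 fell in arch (3.23% and 6.45%, beside 3.99% and 2.58% of all tested genes), and 1 rose and 1 fell in adipose tissue (3.23% and 3.23%, beside 2.17% and 0.67%). Coro1b, a coronin related to Coro1a, fell by 1.58 ± 0.34 in arch (adjusted p = 0.00758), with a mean of 2898 against 8336 in thymus; without the 3 pools rich in markers of other cells the change was -1.17 (adjusted p = 0.0685), and without the shallow columns -1.09 (0.106). Pfn1, profilin, which feeds actin monomers to growing filaments, had 21104, 20448, 20502 and 28553 in arch pools, 15784, 29561, 23041 and 18791 in adipose pools, and 46246, 42692, 38625 and 35175 in thymus pools. It lay below thymus in every peripheral pool, and fell by 0.85 ± 0.19 in arch (adjusted p = 0.01) and by 0.93 ± 0.19 in adipose tissue (adjusted p = 0.00767). Actg1, cytoplasmic γ-actin, rose, and averaged 174000 in arch, 126100 in adipose pools and 67870 in thymus (1.36 ± 0.20, adjusted p = 0.000306 in arch, and 0.93 ± 0.20, adjusted p = 0.0135 in adipose tissue). The adipose call of Actg1 was lost without thymus pools 3 or 4 or adipose pool 3 (0.0557 to 0.0614). Rac2, the haematopoietic RAC protein, and Cfl1, cofilin, did not pass (adjusted p = 0.418 and 0.376 in arch, 0.0608 and 0.282 in adipose tissue).

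**Figure D5:**
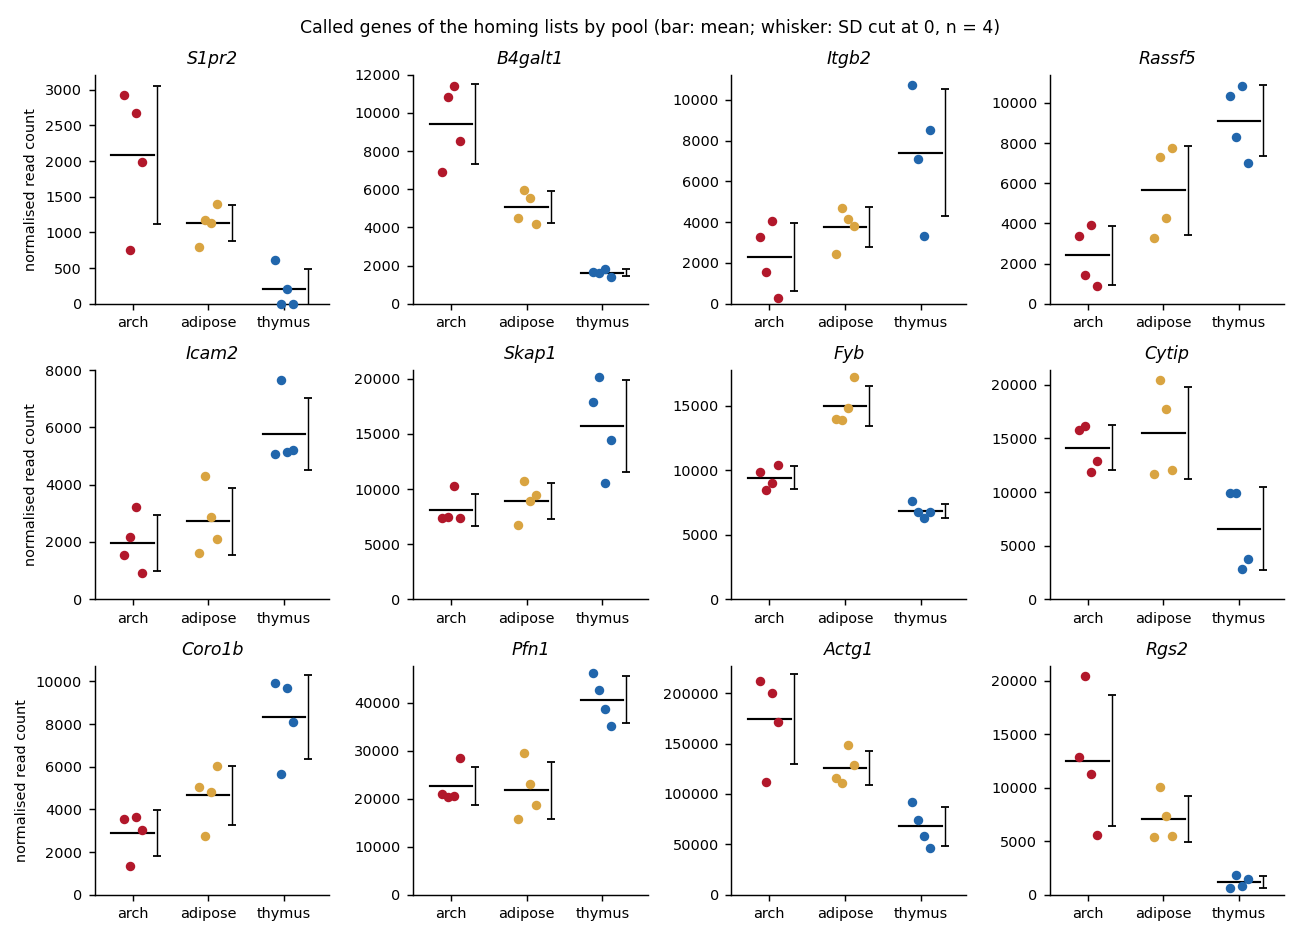
Normalised read count (y axis, from 0) of 12 called genes of the homing lists in 4 pools (points) of arch, adipose tissue and thymus, with mean (bar) and SD (whisker, cut at 0). S1pr2, B4galt1, Actg1 and Rgs2 have their lowest mean in thymus, while Rassf5, Icam2, Skap1, Coro1b and Pfn1 have their highest mean there.

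Mature T cell markers bear on these values because Klf2, S1pr1 and Ccr7 are also high in mature T cells. The 10 measured markers summed to 442.9 to 617.4 CPM in arch, 787.5 to 1010 in adipose pools and 716.5 to 930.4 in thymus, and Gimap3, Gimap4, Zbtb7b and Ly6c2 were at 0 in all arch pools. The highest sum of an arch pool was below the lowest of the other pools, and the part of mature cells in the differences of these genes was not tested. By limma, 0 of 5 tested mature T cell markers passed in arch against thymus; 1 was lower at an unadjusted p under 0.05, 0 by edgeR and 1 by DESeq2. NK and innate lymphoid markers summed to 74.5 to 223.6 CPM in arch, 113 to 201.1 in adipose pools and 186.5 to 337.7 in thymus. Of the 7 measured, Klrk1, Nkg7, Rora and Areg were at 0 in all thymus pools. All 7 had reads in arch, and Klrk1 alone was at 0 in adipose tissue. Of 3 tested, limma called 1 (Rora) higher in adipose tissue against thymus, beside 2.17% of all tested genes. In arch against thymus limma called 0, while edgeR and DESeq2 each called 1 higher. The part of such cells was not tested. Adipocyte markers summed to at most 51.4 in arch, 189.7 in adipose pools and 12.9 in thymus.

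Among all tested genes, those whose log2 values ran most like each called member over the 12 pools were ranked by Pearson's r, as a description. For Selplg they were Rnf157 (r = 0.934, Spearman's rho = 0.951), Fbxl5 (0.927 and 0.944) and Fyb (0.921 and 0.874). For Klf2 they were Atf4 (0.948 and 0.902), Strap (0.94 and 0.86) and Pgrmc1 (0.932 and 0.923), and for Coro1a they were Bcl2l1 (0.963 and 0.93), Mospd3 (0.95 and 0.923) and Fancl (0.948 and 0.951). The pools of a tissue share its digestion, and the same 12 pools enter every one of these correlations.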

How the data were processed

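DP cells were sorted and sequenced as 26 libraries from low input, with 18 cycles of amplification and single reads of 50 bp, per the labels' protocols. FastQC 0.11.5, STAR 2.6.0c and the build GRCm38 are named, per the submitters' processing notes. Which program counted reads, with which annotation, is not given in the sources used here. Deposited values are a normalised signal for each gene and pool, so libraries were combined by the authors. All 120369 values above 0 were whole multiples (within 0.01) of their column's smallest value, so whole reads were recovered. The values are no raw counts, so the main test was limma 3.58.1 (R 4.3.3) on log2(value + 20), with a trend of variance on level and all 12 columns in 1 fit. Fold changes on that scale understate the change of low genes; the pseudocount equals 10.5 to 35.3 reads. On simulated data with 200 changed genes and an equal spread for all genes the test was checked first. That simulation did not model pools at 0 beside high ones, as seen for Ccr7 and S1pr1. It does not show how the test performs on such genes. Alternatives were edgeR 4.0.16, DESeq2 1.42.0, other pseudocounts, filters, TMM scaling, pools left out and pool number as a block. CPM sums use recovered reads. Members, lists and the naming rule (at most 3 called genes per list, comparison and direction, by size) were chosen with earlier results of these data known; 2 list genes are not reported here and enter no list count. Annotation is GENCODE M21, matched by symbol for 12427 of 13765 genes; 6 of 9 members had a RefSeq promoter. The labels do not say that pools were prepared apart, so p-values measure the spread between these pools, which may be partly technical.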

Additional observations from a re-analysis of the deposited data

Results flagged for a closer look

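Of 26 sets of 4 pools of a member in a tissue that held any reads, 2 had a pool whose distance from its nearest neighbour, divided by the range of the 4, exceeded Dixon's critical value. S1pr1 was at 95.3 in arch pool 3 and at 0 in the other arch pools. Itgb7 was at 3.26 in arch pool 1, which is 4 reads, and at 0 in the other arch pools. Chance flags about 1 in 20 such sets, and a set with reads in a single pool passes this value whatever its level.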

How the results depend on the processing

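Genes called in arch against thymus numbered 598, with 365 by edgeR, 1007 by DESeq2, 308 without the 3 shallow columns, 345 without the 3 pools rich in markers of other cells (chosen after seeing the data) and 404 to 620 without 1 pool. The share called higher was 60.7%, against 76.2% with edgeR, and the median log2 change of all genes -0.20, against -0.06 with edgeR. Adipose tissue against thymus gave 259 (212 by edgeR, 539 by DESeq2, 169 to 250 without 1 pool). Arch against adipose tissue gave 16, with 9 at a pseudocount of 5, 2 without a filter, 8 by edgeR, 172 by DESeq2, 0 without the shallow or marker-rich pools and 2 to 14 without 1 pool. Members called in adipose tissue against thymus numbered 1, with 3 by DESeq2 and 2 with only those tissues, without the shallow or without the marker-rich pools (1 to 2 without 1 pool). Members called in arch against adipose tissue (1, Selplg) became 0 at a pseudocount of 5, without a filter, with edgeR, with only those tissues and without the shallow or marker-rich pools (0 to 1 without 1 pool). Homing list genes called were 13 in arch against thymus (9 by edgeR, 22 by DESeq2, 6 without the marker-rich pools). They were 9 in adipose tissue against thymus (6 by edgeR, 14 by DESeq2) and 0 in arch against adipose tissue (0 by edgeR, 2 by DESeq2). Over the members and the called list genes, 733 single-gene values under an alternative kept their direction and side of the threshold, 113 lost a call, 7 gained a call and 21 took the other sign. Changes that took the other sign, all uncalled, were Ccr7 in arch against thymus (0.205 at a pseudocount of 100, 0.839 by edgeR, 0.797 by DESeq2, 1.72 without the shallow and 2.72 without the marker-rich pools, -1.22 to 0.81 without 1 pool), Ccr9 in arch against adipose tissue (-0.00821 with TMM, -0.0216 by edgeR, -0.193 without the marker-rich pools, -0.176 to 0.156 without 1 pool) and Itga4 there (-0.0194 with TMM, -0.404 and -0.328 without the shallow or marker-rich pools, -0.283 to 0.609 without 1 pool). The cause was not tested, beyond the fewer pools in fits that leave some out. With pool number as a replicate block 608, 243 and 12 genes were called and 0 members in arch against adipose tissue. The deviations of same-numbered pools correlated at -0.0316 to 0.0756, and 5 of 12 pools matched best with their own number. Such values cannot decide whether same-numbered pools share mice, since technical spread could mask it. The numbers were not taken as a pairing because the labels do not state one. S1pr1 had too few reads for a test; how depth limits the other members was not tested.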
